A study of Mus musculus with 24 samples.

Results

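The kynurenine pathway was followed here through 10 enzyme genes, taken by symbol from a fixed list (Tdo2, Afmid, Kmo, Kynu, Haao, Acmsd, Qprt, Kyat1, Kyat3 and Aadat) out of 55335 genes counted in each of 24 mouse kidneys. All 10 were among the 16092 genes that reached 1 CPM (read counts scaled to the size of the library) in some kidney and were tested. The kidneys came from 6 male control mice (Ctrlm), 6 male knockout mice (cKOm), 6 female control mice (Ctrlf) and 6 female knockout mice (cKOf). The cKO mice were Pex5lox/lox/Pax8-rtTA/LC1, in which doxycycline (DOX) switches on Cre recombinase along the renal tubule and inactivates Pex5, the receptor that brings enzymes into peroxisomes. Controls were Pex5lox/lox littermates on the same C57BL/6J background. Both genotypes received DOX for 2 weeks from 8 weeks of age, so DOX itself is shared by every group, and kidneys were taken 4 weeks after it ended. The study reported some remaining full-length Pex5 mRNA and PEX5 protein in cKOf kidneys and proposes incomplete excision there. Where male and female changes are compared, sex and completeness of the deletion cannot be told apart. Kidney cells outside the tubule keep Pex5, and the RNA was of the whole kidney. A lower level in these samples may mean fewer cells of a type or less RNA per cell, which cannot be told apart.

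As background, tryptophan that is not used for protein is broken down mostly along the kynurenine pathway. Its opening step, by tryptophan or indoleamine dioxygenases, gives formylkynurenine, which the formamidase Afmid turns into kynurenine. Kynurenine aminotransferases (Kyat1, Kyat3, Aadat) convert kynurenine to kynurenic acid, whereas Kmo, Kynu and Haao lead by hydroxylation, cleavage and ring opening to an unstable semialdehyde. Acmsd decarboxylates this semialdehyde and sends it to oxidation through the glutarate route; what escapes Acmsd closes into quinolinic acid, which Qprt makes into a precursor of NAD. Proximal tubule cells are known for taking up tryptophan and for expressing several of these enzymes.

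Kmo, Haao and Kyat1, the 3 members that fell in cKOm mice compared with Ctrlm mice without overlap between the groups, each carried a nuclear receptor hexamer near a RefSeq start site, and their promoters are shown for that reason. RefSeq (GRCm38.p6) gave windows of 250 bases before to 50 bases after a start site for 9 of the 10 members, Kynu being the one without a window. Capitals mark TGTTCT, the reverse complement of AGAACA (the core of androgen and glucocorticoid response elements), and TGACCT, the reverse complement of AGGTCA (the core bound by many nuclear receptors, PPAR and HNF4 among them). Each sequence is the strand of its gene, 5′ to 3′. The windows are chr1:175631943-175632242 (plus strand) for Kmo, chr17:83846741-83847040 (minus strand) for Haao and chr2:30205798-30206097 (minus strand) for Kyat1. The RefSeq start sites of Kmo and Haao lie inside the gene bodies of the GENCODE annotation used for positions below.
Kmo: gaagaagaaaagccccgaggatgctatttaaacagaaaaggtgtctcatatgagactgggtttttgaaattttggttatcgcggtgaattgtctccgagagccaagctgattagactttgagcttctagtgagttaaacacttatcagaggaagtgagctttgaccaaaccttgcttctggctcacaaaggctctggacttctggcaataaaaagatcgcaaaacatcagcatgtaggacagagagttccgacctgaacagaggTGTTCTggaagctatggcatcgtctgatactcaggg
Haao: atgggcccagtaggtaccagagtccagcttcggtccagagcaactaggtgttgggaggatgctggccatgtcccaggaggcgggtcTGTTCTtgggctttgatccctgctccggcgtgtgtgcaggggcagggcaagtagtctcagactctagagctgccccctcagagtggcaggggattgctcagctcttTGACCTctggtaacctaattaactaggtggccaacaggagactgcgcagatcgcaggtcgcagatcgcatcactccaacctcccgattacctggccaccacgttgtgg
Kyat1: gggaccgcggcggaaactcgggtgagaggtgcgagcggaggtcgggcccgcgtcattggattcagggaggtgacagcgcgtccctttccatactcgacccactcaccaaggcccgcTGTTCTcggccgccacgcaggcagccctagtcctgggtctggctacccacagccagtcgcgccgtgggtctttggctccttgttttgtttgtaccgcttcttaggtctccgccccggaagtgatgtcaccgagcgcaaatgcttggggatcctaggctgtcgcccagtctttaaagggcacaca
Searched on both strands, AGAACA occurred in 3 of the 9 member windows (Kmo, Haao and Kyat1) and in 18.97% of all 32851 windows of this length. AGGTCA occurred in 3 of 9 (Haao among them) and in 16.26% of all windows. Haao was the one member with both hexamers, at positions -164 and -58 from its start site. Either hexamer was present in 5 of 9 member windows and in 31.81% of all windows. The longer elements built from these hexamers, the inverted repeat with a 3-base spacer (androgen or glucocorticoid response element) and the direct repeat with a 1-base spacer (DR1), were found in no member window, and in 0.01% and 0.04% of all windows. The window of Kyat3, which also fell, held neither hexamer. A match is a description of letters and not a binding site.

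Total gene counts ran from 19376152 to 28470831 per kidney, with a median of 21592601. Pex5 transcripts, the check of the labels, were 41.8 to 47.3 CPM in cKOm against 49.1 to 62.8 CPM in Ctrlm kidneys, without overlap (log2 fold change -0.31, SE 0.08, adjusted p = 0.0219). In females the ranges were 38.0 to 48.5 CPM in cKOf and 43.0 to 61.7 CPM in Ctrlf (-0.21, SE 0.08, adjusted p = 0.177). The male Pex5 call was lost without Ctrlm replicate 2 (adjusted p = 0.0656), without cKOm replicate 4 (0.0504), with a liver covariate (0.128) and without the 5 kidneys of high Alb described next (log2 fold change -0.26, adjusted p = 0.382). Pex5 counts cover the whole gene and all cells of the kidney, so they do not measure how complete the deletion was. The study's own measurement found Pex5 mRNA significantly lower in cKO kidneys of both sexes. It reported PEX5 protein as virtually absent from cKOm kidneys, and as substantially lower but detectable in cKOf kidneys. By electron microscopy the study found virtually no peroxisomes in proximal tubules of cKO mice of either sex. Kidney markers fitted the label in every group, the summed level of 10 proximal tubule markers being 8205 to 11710 CPM. That sum was lower in cKOm (8205 to 9003 CPM) than in Ctrlm kidneys (10220 to 11710 CPM). Of the 10 markers 6 passed lower and none higher in males, where 4.9% of all genes tested passed lower. Their log2 fold changes in males ran from -4.10 (Slc22a7) and -2.26 (Slc7a13) to 0.63 (Slc5a12, adjusted p = 0.0512). Those of Slc5a2 (0.10) and Miox (0.04) were also positive. The ranges of the sum overlapped in females (9588 to 10500 CPM in cKOf and 10010 to 11460 CPM in Ctrlf). None of the 10 markers passed the test in females by edgeR, limma-voom or DESeq2, 2 having an unadjusted p below 0.05. A sum of 7 markers of the more distal nephron was 6113 to 6928 CPM in cKOm against 4479 to 6414 CPM in Ctrlm. Of the 7, 3 passed higher, where 4.14% of all genes tested did. Macrophage markers (8 genes) summed to 152 to 237 CPM in cKOm and 223.7 to 371 CPM in Ctrlm, and Ctrlf replicate 1 stood apart at 1224 CPM against 211.8 to 296.2 CPM in the other Ctrlf kidneys. The part of these differences in marker levels in the results below was not tested.

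Liver transcripts set 5 kidneys apart. Albumin (Alb), the main secreted protein of hepatocytes, was 224.2 to 661.9 CPM in Ctrlm replicates 1 to 4 and cKOm replicate 4, and 15.12 to 60.23 CPM in the other 19 kidneys. The sum of 19 hepatocyte markers was 529.1 to 1083 CPM in Ctrlm replicates 1 to 4, 548.1 CPM in cKOm replicate 4 and at most 149.8 CPM elsewhere, and none of the 19 markers was at 0 throughout any group. Of the 19 markers, 5 were called lower and 1 higher in cKOm, none in females (2 at an unadjusted p below 0.05, and none by limma-voom or DESeq2), and 18 were called higher in Ctrlm than in Ctrlf. Of all genes tested, 4.9% were called lower and 4.14% higher in cKOm, and 8.71% higher in Ctrlm than in Ctrlf. Results in males are therefore given with and without these 5 kidneys. Leaving them out keeps 2 Ctrlm and 5 cKOm kidneys.

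Tdo2 (chr3:81957090-81976202, minus strand, GRCm38), tryptophan dioxygenase, is chiefly a liver enzyme, and in these samples its transcripts went with Alb. The 5 kidneys with high Alb held 562 Tdo2 counts, 93.98% of all Tdo2 counts in the series, at 77 to 141 counts and 3.82 to 6.72 CPM each. The other 19 kidneys had 0 to 11 counts (at most 0.486 CPM), and 9 of them had none. A count of 0 allows up to 3 counts, which is 0.105 to 0.155 CPM at these depths, counting error only. In the 5 kidneys Tdo2 stood at 8.36 to 26.7 counts per 1000 Alb counts. Since the kidneys formed separate clusters, no correlation over all 24 was computed. Within the 19 kidneys of low Alb, Pearson's r of log2 levels was 0.42 (permutation p = 0.0724, adjusted 0.217) and Spearman's rho 0.18 (permutation p = 0.450, adjusted 0.675), adjusted over 6 coefficients. Leaving out the 2 kidneys farthest from the median of Alb gave r = 0.05 (permutation p = 0.827). Among the 12 female kidneys r was 0.60 (permutation p = 0.0285, adjusted 0.171), rho was 0.47 (permutation p = 0.129, adjusted 0.257), and r was 0.17 without the 2 farthest (permutation p = 0.622), so that the relation rested on those kidneys. Among the 7 male kidneys of low Alb r was 0.17 (permutation p = 0.714, adjusted 0.857) and rho 0.07 (permutation p = 0.892, adjusted 0.892), and r was -0.36 without the 2 farthest (permutation p = 0.551).

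**Figure D1:**
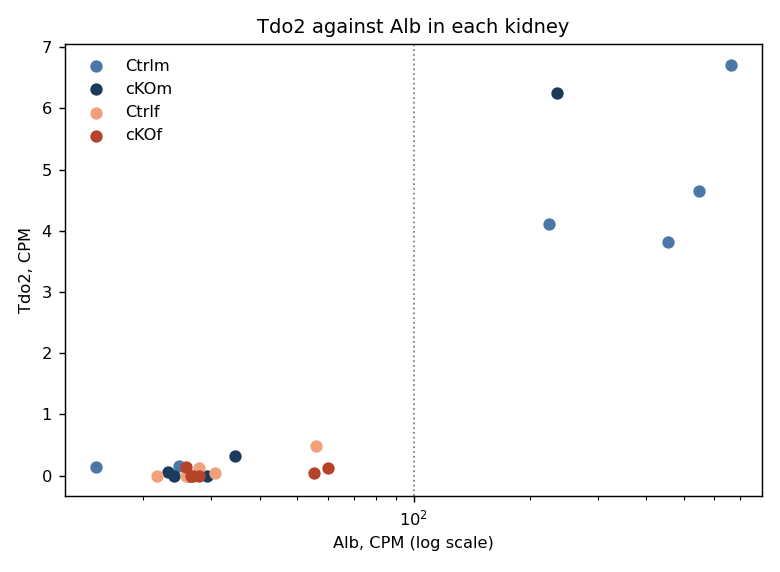
Tdo2 level (CPM) against Alb level (CPM, log scale) in each of 24 kidneys, 1 point per kidney, coloured by group, with a dotted line at 100 CPM of Alb. The 4 Ctrlm kidneys and 1 cKOm kidney to the right of the line lie at 3.82 to 6.72 CPM of Tdo2, and the 19 kidneys to its left lie at or below 0.486 CPM.

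Because of this pattern the group values of Tdo2 followed the kidneys that carried liver transcripts. Tdo2 had medians of 3.96 CPM in Ctrlm and 0.0251 CPM in cKOm kidneys, with ranges of 0.143 to 6.72 and 0 to 6.26 CPM, and the difference did not pass the test (log2 fold change -1.58, SE 1.01, adjusted p = 0.494). One kidney decided this value: without cKOm replicate 4 the log2 fold change was -5.38 with an adjusted p of 0.00255. With a liver covariate in the model it turned to 0.57 (adjusted p = 0.786). Between control sexes Tdo2 passed the test (4.85, SE 1.27, adjusted p = 0.00782), and this too turned, to -1.07, with the liver covariate.

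Indoleamine dioxygenases catalyse the same opening step. Ido1 reached at most 0.524 CPM in any kidney and was not tested. Ido2 was 9.42 to 13.8 CPM (median 10.9) in Ctrlm and 1.29 to 5.35 CPM (median 2.18) in cKOm kidneys, with no overlap. Its log2 fold change in males was -1.87 (SE 0.25, adjusted p = 9.91e-06), a lower estimate than that of any member that passed the test. In females it was 5.43 to 7.16 CPM (median 6.06) in Ctrlf and 3.90 to 5.84 CPM (median 4.99) in cKOf (-0.36, SE 0.24, adjusted p = 0.511). The male and female changes differed (difference -1.50, SE 0.34, adjusted p = 0.0129). The 2 Ctrlm kidneys of low Alb held 9.42 and 11.6 CPM, against 9.59 to 13.8 CPM in the other 4. The male call passed in each of the 34 alternatives tried, among them fits that left out a female kidney and kept every male one. The difference between male and female changes did not pass without the 5 kidneys of high Alb (-1.35, adjusted p = 0.128).

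Across the 10 members, 8 passed the test in cKOm compared with Ctrlm mice, 3 higher and 5 lower, where 9.05% of all 16092 genes tested passed (4.14% higher and 4.9% lower). The median log2 fold change was -0.60 over the members and 0.02 over all genes tested. The groups did not overlap for 3 members (Kmo, Haao and Kyat1), against 7.38% of all genes. In cKOf compared with Ctrlf mice, 1 member passed, lower, where 0.851% of all genes passed (0.46% lower), and the median log2 fold change was -0.13. No member had groups without overlap in females, against 0.559% of all genes. The difference between the male and female changes passed for 2 members, Kynu and Kyat1, 1 higher and 1 lower, where 2.31% of all genes passed (0.82% higher and 1.49% lower). Without the 5 kidneys of high Alb, 5 members passed in males, all of them lower (Kmo, Haao, Kyat1, Kyat3 and Acmsd), where 3.75% of 15955 genes passed and 2.68% were lower. None did in females (Kmo -0.37, adjusted p = 0.0675), where 0.52% of genes passed and 0.257% were lower.

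**Figure D2:**
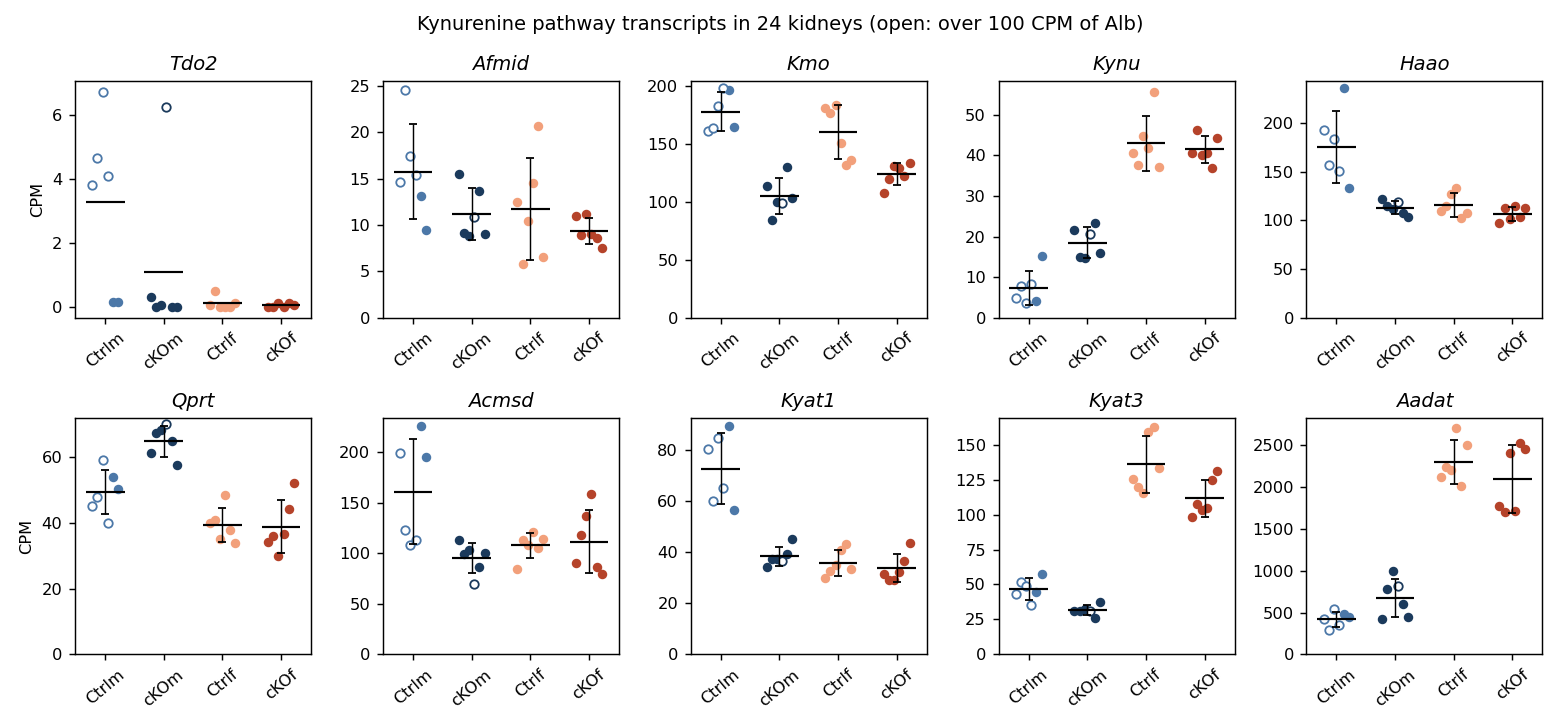
CPM of the 10 members in each kidney (points), with the mean (line) and, except for Tdo2, the SD (bars) of 6 kidneys per group; open points are the 5 kidneys with over 100 CPM of Alb, and each panel has its own linear axis. In males Kmo, Haao and Kyat1 separate by genotype without overlap, while Kynu, Kyat3 and Aadat sit far apart between the sexes.

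Afmid (chr11:117825924-117839908, plus strand), the formamidase that releases kynurenine, was 9.42 to 24.6 CPM (median 14.98) in Ctrlm and 8.84 to 15.6 CPM (median 9.995) in cKOm kidneys. The ranges overlapped broadly and the difference did not pass (log2 fold change -0.50, SE 0.24, 95% interval -0.97 to -0.02, adjusted p = 0.311). Without the 5 kidneys of high Alb the male value was -0.041 (adjusted p = 0.979). In Ctrlf it was 5.74 to 20.7 CPM and in cKOf 7.54 to 11.2 CPM (-0.33, SE 0.24, adjusted p = 0.576). Afmid shares 1566 of its 3539 exon bases with an overlapping gene model on the same strand, Gm20708, and 83 with Tk1 on the opposite strand, so its level is uncertain.

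Kmo, Haao and Kyat1 gave the male difference with the least overlap. Kmo (chr1:175620381-175662116, plus strand), the mitochondrial monooxygenase that commits kynurenine to the NAD arm, was 161.6 to 198.7 CPM (median 173.7) in Ctrlm and 84.5 to 130.3 CPM (median 101.7) in cKOm kidneys. Every cKOm kidney lay below every Ctrlm kidney, and transcripts fell to 0.59 of the control level (log2 fold change -0.76, SE 0.10, adjusted p = 8.85e-06). Kmo was also the member that passed in females, from 131.6 to 184.1 CPM (median 163.9) in Ctrlf to 107.8 to 134.0 CPM (median 125.7) in cKOf. Here 5 of the 6 cKOf kidneys lay below all Ctrlf kidneys, and the level was 0.77 of control (-0.37, SE 0.10, adjusted p = 0.0254). This female call was lost without any 1 of Ctrlf replicates 1, 2 and 3 (adjusted p = 0.0622, 0.0615 and 0.0674) or cKOf replicates 1 and 2 (0.0672 and 0.0513), and with the p-values adjusted within females alone (0.176), at log2 fold changes between -0.37 and -0.33. The exact permutation test of the female Kmo difference, 6 against 6 kidneys, gave p = 0.00433. The male and female changes of Kmo differed by -0.39 (SE 0.14, 95% interval -0.67 to -0.12, adjusted p = 0.174).

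Haao (chr17:83831156-83847963, minus strand), the dioxygenase that opens the ring of 3-hydroxyanthranilic acid, was 133.5 to 236.5 CPM (median 170.2) in Ctrlm and 103.5 to 121.9 CPM (median 113.7) in cKOm kidneys. The cKOm values were tightly grouped, with a coefficient of variation of 6.12%, and all lay below Ctrlm, where it was 20.98%. The log2 fold change was -0.64 (SE 0.10, adjusted p = 1.37e-04). Female values were 102.2 to 133.6 CPM (median 112.1) in Ctrlf and 97.1 to 114.6 CPM (median 107.9) in cKOf (-0.12, SE 0.10, 95% interval -0.31 to 0.08, adjusted p = 0.658). The difference between the sexes was -0.52 (SE 0.14, adjusted p = 0.0511). It passed in 8 of 32 alternatives, among them DESeq2 (adjusted p = 0.0155), RLE scaling (0.0458) and the filter of 1 CPM in at least 6 kidneys (0.0418). It also passed without any 1 of Ctrlf replicate 4 (0.0279), Ctrlm replicates 2, 4 and 6 (0.0392, 0.0359 and 0.00857) and cKOf replicate 1 (0.049).

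Kynu (chr2:43555329-43682715, plus strand), kynureninase, was the member with the largest relative rise in males. Ctrlm kidneys held 3.70 to 15.1 CPM (median 6.35) and cKOm kidneys 14.6 to 23.3 CPM (median 18.3). The groups overlapped only through Ctrlm replicate 6 at 15.1 CPM, the other 5 Ctrlm kidneys lying at or below 8.21 CPM, and 4 of 6 cKOm kidneys exceeded all Ctrlm kidneys. The level was 2.52 times that of control (log2 fold change 1.33, SE 0.22, adjusted p = 2.45e-04). In females Kynu was 37.1 to 55.7 CPM (median 41.3) in Ctrlf and 36.8 to 46.4 CPM (median 40.6) in cKOf, with nearly coincident ranges (-0.05, SE 0.21, 95% interval -0.46 to 0.36, adjusted p = 0.947). The change in males exceeded that in females by 1.39 (SE 0.31, adjusted p = 0.00967). Without the 5 kidneys of high Alb, where Ctrlm replicates 5 and 6 remain at 4.12 and 15.1 CPM, the male log2 fold change was 0.87 (adjusted p = 0.158) and exceeded the female one by 0.93 (adjusted p = 0.203). With the liver covariate the male call held. Raised Kynu in cKOm mice still fell short of Ctrlf mice, the highest cKOm kidney (23.3 CPM) lying below the lowest Ctrlf kidney (37.1 CPM).

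At the branch below Haao, Acmsd and Qprt moved apart in males. Acmsd (chr1:127729413-127767978, plus strand) was 108.6 to 226.3 CPM (median 158.9) in Ctrlm and 70.1 to 112.7 CPM (median 100) in cKOm kidneys. Ctrlm kidneys formed a low set of 3 (108.6 to 122.6 CPM, replicates 2, 3 and 4) and a high set of 3 (195.2 to 226.3 CPM), and 5 of 6 cKOm kidneys lay below all of them. The log2 fold change was -0.75 (SE 0.18, adjusted p = 0.00998). All 3 low Ctrlm kidneys had high Alb, as did replicate 1 of the high set, and without the 5 kidneys of high Alb the difference was larger, at -1.10. Qprt (chr7:127107114-127122226, minus strand), which makes nicotinic acid mononucleotide from quinolinic acid, was 39.96 to 59.2 CPM (median 49.1) in Ctrlm and 57.6 to 70.0 CPM (median 66.1) in cKOm kidneys, with 5 of 6 cKOm kidneys above all Ctrlm kidneys. Its log2 fold change was 0.39 (SE 0.11, adjusted p = 0.04). This call lay near the threshold. It was lost in 15 of 34 alternatives. With every kidney kept, it was lost with RLE scaling (adjusted p = 0.0619) and with the replicate block (0.0775). The same held over every gene with a count (0.0819) and over genes with 1 CPM in at least 6 kidneys (0.061). It was also lost without any 1 of Ctrlm replicates 1, 2, 4 and 6, cKOm replicates 1 to 5 and Ctrlf replicate 5, at log2 fold changes of 0.34 to 0.41 and adjusted p between 0.0507 and 0.1, and without the 5 kidneys of high Alb (0.26, adjusted p = 0.556).

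In females neither enzyme at this branch passed the test. Acmsd was 84.9 to 121.2 CPM in Ctrlf and 79.9 to 158.2 CPM in cKOf (log2 fold change 0.05, SE 0.18, 95% interval -0.30 to 0.40, adjusted p = 0.941). Qprt was 33.9 to 48.6 CPM in Ctrlf and 29.9 to 52.1 CPM in cKOf (-0.02, SE 0.11, 95% interval -0.25 to 0.20, adjusted p = 0.959). The difference between the sexes was -0.80 (SE 0.25, adjusted p = 0.101) for Acmsd and 0.41 (SE 0.16, adjusted p = 0.22) for Qprt. That of Acmsd passed with the liver covariate (-1.06, adjusted p = 0.0135), without the 5 kidneys of high Alb (-1.15, adjusted p = 0.0129) and by DESeq2 (-0.82, adjusted p = 0.0284). The ratio of Acmsd to Qprt is given as a description, its genes having been chosen with results known. Per kilobase of exon it was 1.71 to 4.12 in Ctrlm (geometric mean 2.93) and 0.936 to 1.72 in cKOm kidneys (1.36). In females it was 1.98 to 3.14 in Ctrlf (2.56) and 1.43 to 4.28 in cKOf (2.64). The male ranges barely touched, whereas the cKOf range contained the Ctrlf range.

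The 3 aminotransferases that make kynurenic acid did not move together in males. Kyat1 (chr2:30185124-30205847, minus strand) was 56.5 to 89.4 CPM (median 72.5) in Ctrlm and 33.99 to 45.0 CPM (median 37.2) in cKOm kidneys, without overlap. It fell to 0.53 of control, the lowest ratio among the members that passed (log2 fold change -0.92, SE 0.12, adjusted p = 7.53e-06). In females it was 29.9 to 43.0 CPM (median 33.96) in Ctrlf and 29.1 to 43.3 CPM (median 31.7) in cKOf (-0.09, SE 0.12, 95% interval -0.32 to 0.15, adjusted p = 0.8). The male and female changes differed (-0.83, SE 0.17, adjusted p = 0.00475), and this difference passed in each of the 32 alternatives tried.

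Kyat3 (chr3:142701051-142746870, plus strand) was 35.3 to 57.2 CPM (median 46.8) in Ctrlm and 26.1 to 37.4 CPM (median 31.2) in cKOm kidneys, with 5 of 6 cKOm kidneys below all Ctrlm kidneys. Its log2 fold change was -0.57 (SE 0.11, adjusted p = 0.00153). Female levels were well above the male ones, at 115.4 to 162.5 CPM (median 129.5) in Ctrlf and 98.5 to 131.2 CPM (median 106.2) in cKOf, and 4 of 6 cKOf kidneys lay below all Ctrlf kidneys. The female difference did not pass over all genes (-0.28, SE 0.11, 95% interval -0.50 to -0.07, adjusted p = 0.159), nor did the difference between the sexes (-0.28, SE 0.16, adjusted p = 0.444). Kyat3 shares 264 of its 9518 exon bases with Gm15540 on the opposite strand, to which 29 counts fell over all kidneys.

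Aadat (chr8:60505932-60545677, plus strand), which also transaminates the lysine product 2-aminoadipate, rose in males. Ctrlm kidneys held 286.3 to 541.9 CPM (median 434.8) and cKOm kidneys 420.5 to 996.7 CPM (median 691.0). Of the 6 cKOm kidneys, 4 exceeded all Ctrlm kidneys, and replicates 1 and 6 lay within the Ctrlm range at 420.5 and 443.2 CPM. The log2 fold change was 0.68 (SE 0.18, adjusted p = 0.0189). The call was lost without Ctrlm replicate 2 (adjusted p = 0.0526) or cKOm replicates 2, 3 or 4 (0.0502, 0.0747 and 0.0515), with males fitted alone (0.0675) and without the 5 kidneys of high Alb (log2 fold change 0.45, adjusted p = 0.463). In Ctrlf Aadat was 2018 to 2707 CPM (median 2217), and in cKOf it was 1703 to 2522 CPM (median 2087), where replicates 1, 2 and 4 lay at 1703 to 1770 CPM and replicates 3, 5 and 6 at 2404 to 2522 CPM. The female difference was -0.13 (SE 0.17, 95% interval -0.48 to 0.21, adjusted p = 0.793). The difference between the sexes was 0.81 (SE 0.25, adjusted p = 0.0868). It passed in 3 of 32 alternatives, by DESeq2 (0.0318) and without cKOm replicate 1 (0.0327) or replicate 6 (0.0415).

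**Figure D3:**
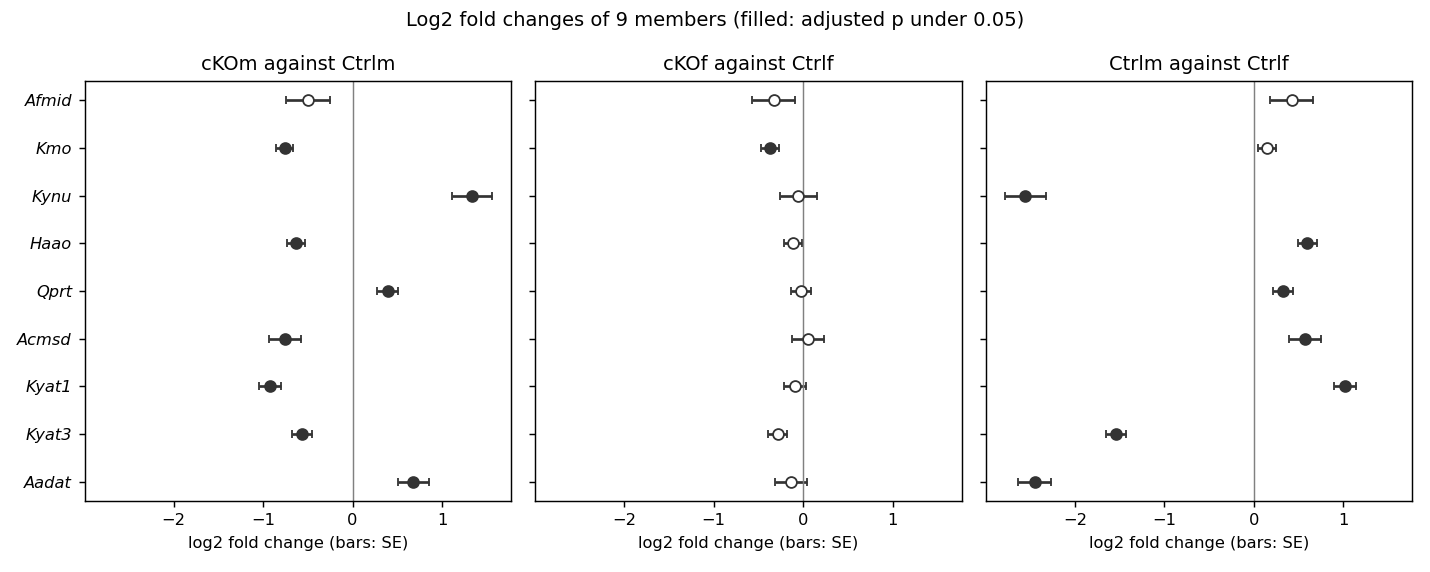
Log2 fold changes (points) with SE (bars) of 9 members in cKOm against Ctrlm, cKOf against Ctrlf and Ctrlm against Ctrlf, on 1 common axis; filled points have an adjusted p under 0.05, and Tdo2 is left out because its level followed Alb. In males Kynu, Aadat and Qprt lie to the right of 0 and Kmo, Haao, Acmsd, Kyat1 and Kyat3 to the left, whereas in females only the point of Kmo is filled.

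Among the members that passed in males, the kidney of Ctrlm replicate 6 sat nearest to the cKOm kidneys for Kynu, Kyat1 and Haao. It had the highest Kynu (15.1 CPM) and the lowest Kyat1 (56.5 CPM), Haao (133.5 CPM), Afmid (9.42 CPM) and Ido2 (9.42 CPM) of the 6 Ctrlm kidneys. Its Kyat3 (57.2 CPM) was the highest of that group and its Acmsd (195.2 CPM) lay in the high set, both on the side away from cKOm. Its Kmo (164.5 CPM), Qprt (50.3 CPM) and Aadat (446.2 CPM) lay inside the range of the other Ctrlm kidneys. Its Pex5, at 49.1 CPM, was the lowest of the Ctrlm kidneys and above all cKOm kidneys.

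Control kidneys differed between the sexes for most members. In Ctrlm compared with Ctrlf mice 8 of 10 members passed, 5 higher in males and 3 lower, where 16.8% of all genes passed (8.71% higher and 8.11% lower), and 4 members had groups without overlap (Kynu, Kyat1, Kyat3 and Aadat), against 7.35% of all genes. The 5 higher include Tdo2, whose difference turned to -1.07 with the liver covariate. With that covariate 6 members passed, 3 higher and 3 lower, where 799 genes were higher and 719 lower of 16092. Without the 5 kidneys of high Alb 6 also passed, 3 higher and 3 lower, where 946 genes were higher and 624 lower of 15955. The Ctrlm and Ctrlf kidneys are the same ones used in the genotype comparisons, so the values are set side by side and no overlap between comparisons was tested. Kynu was 0.17 (log2 fold change -2.55, SE 0.23, adjusted p = 2.24e-09), Aadat 0.18 (-2.45, SE 0.18, adjusted p = 7.77e-11) and Kyat3 0.34 (-1.54, SE 0.11, adjusted p = 3.77e-11) of the female level in males. Kyat1 was 2.03 times (1.02, SE 0.12, adjusted p = 2.89e-07) and Haao 1.52 times (0.60, SE 0.10, adjusted p = 7.55e-05) the female level.

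Acmsd (0.58, SE 0.18, adjusted p = 0.0245) and Qprt (0.33, SE 0.11, adjusted p = 0.0475) were also higher in Ctrlm than in Ctrlf by smaller margins. The Acmsd call was lost without Ctrlf replicate 1 (0.0591), Ctrlm replicate 1 (0.0672) or Ctrlm replicate 5 (0.0884), and its log2 fold change was 0.99 without the 5 kidneys of high Alb. For Qprt it was lost in 19 of 32 alternatives, among them leaving out Ctrlm replicates 2, 3, 5 or 6, cKOm replicates 1, 2, 3, 4 or 6, Ctrlf replicates 1, 2, 3, 5 or 6 and cKOf replicates 2 or 4, with adjusted p between 0.0502 and 0.131 when 1 kidney was left out. Kmo (0.15, SE 0.10, 95% interval -0.04 to 0.35, adjusted p = 0.341) and Afmid (0.43, SE 0.24, adjusted p = 0.257) did not pass, although Afmid did without Ctrlf replicate 5 (0.69, adjusted p = 0.0355).

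Set beside the male genotype change, Kynu and Aadat were lower in Ctrlm than in Ctrlf mice and higher in cKOm than in Ctrlm mice. Kyat1, Haao and Acmsd were higher in Ctrlm than in Ctrlf mice and lower in cKOm mice. Kyat3 and Qprt did not follow this order, Kyat3 being lower in Ctrlm than in Ctrlf and lower again in cKOm, and Qprt higher in Ctrlm and higher again in cKOm. Kmo was lower in cKOm mice and did not pass between control sexes (0.15, adjusted p = 0.341). Both comparisons use the same Ctrlm kidneys, with opposite sign. An error in the Ctrlm mean would move both estimates towards this order or away from it, and the order was not tested. For Kyat1, Haao and Acmsd the cKOm mean (38.2, 113.2 and 95.5 CPM) lay close to the Ctrlf mean (35.7, 115.9 and 107.8 CPM), whereas for Kynu and Aadat it remained far below it (18.5 against 43.0 CPM and 676.1 against 2298 CPM).

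Levels of different genes were compared per kilobase of merged exons. Aadat was the highest member in every group, with 193.7 ± 41.4 CPM per kb in Ctrlm and 310.4 ± 105 CPM per kb in cKOm kidneys, and with 1055 ± 119 and 961.5 ± 185 CPM per kb in the Ctrlf and cKOf kidneys (SD, n = 6). By mean, Acmsd came next in every group, at 56.8 ± 18.3, 33.7 ± 5.31, 38.1 ± 4.38 and 39.4 ± 11.1 CPM per kb, but in Ctrlf its spread overlapped that of Kmo (33.9 ± 4.96) and in Ctrlm those of Kmo and Haao. Kmo (37.7 ± 3.61) and Haao (37.6 ± 7.88) did not differ beyond their spread in Ctrlm. In cKOm kidneys Qprt (24.5 ± 1.78), Haao (24.2 ± 1.48) and Kmo (22.3 ± 3.28) could not be ordered. Kynu was among the lowest in Ctrlm (1.19 ± 0.693 CPM per kb), below Afmid (4.46 ± 1.44), whereas in Ctrlf it stood above it (6.99 ± 1.11 against 3.31 ± 1.56). With the longest transcript as the length in place of merged exons, 8 members kept their rank in Ctrlm and 5 in cKOm kidneys, and 6 did so in either female group, Acmsd becoming number 3 in cKOm and Ctrlf.

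**Figure D4:**
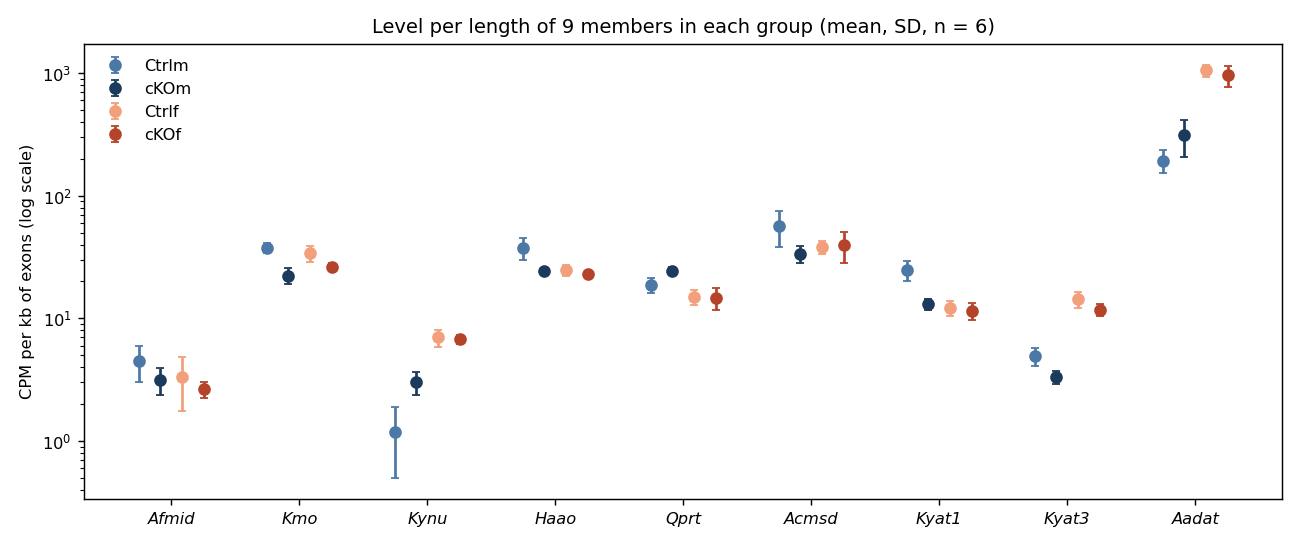
Mean level per kilobase of merged exons (CPM per kb, log scale) of 9 members in the 4 groups, ordered along the pathway, with SD bars (n = 6 kidneys). Aadat lies highest in each group and 1055 CPM per kb in Ctrlf compares with 193.7 in Ctrlm, while Kynu spans 1.19 in Ctrlm to 6.99 in Ctrlf.

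The ratio of Kmo to Aadat per kilobase sets the enzyme of the NAD arm against a single aminotransferase that makes kynurenic acid. Kyat1 (log2 fold change -0.92) and Kyat3 (-0.57) fell in cKOm kidneys as Kmo did (-0.76), while Aadat rose (0.68). The ratio therefore does not describe the kynurenic acid branch as a whole. The rise of Aadat did not pass without the 5 kidneys of high Alb (adjusted p = 0.463). The ratio was 0.156 to 0.264 in Ctrlm (geometric mean 0.198) and 0.0463 to 0.125 in cKOm kidneys (0.0746). Female kidneys lay lower still, at 0.0251 to 0.0393 in Ctrlf (0.032) and 0.0224 to 0.0348 in cKOf (0.0277). The ranges of Ctrlm, cKOm and Ctrlf did not overlap, and those of Ctrlf and cKOf did. Both genes were chosen with results known, so the separation of the groups was not tested. These ratios are descriptions of transcripts and no flux was measured.

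Of the wider pathway, the glutarate route that oxidises the Acmsd product was followed through 8 genes, of which 2 passed in males, both lower. Of all genes tested, 4.9% passed lower in males. Acat1, the mitochondrial thiolase that releases acetyl-CoA at the end of this route and of isoleucine and ketone body breakdown, was 941.1 to 1277 CPM in Ctrlm and 480.6 to 637.6 CPM in cKOm (log2 fold change -0.89, SE 0.09, adjusted p = 2.11e-07). Gcdh, glutaryl-CoA dehydrogenase, was 352.1 to 468.7 CPM in Ctrlm and 238.2 to 303.8 CPM in cKOm (-0.61, SE 0.08, adjusted p = 8.05e-06). Neither pair of groups overlapped. Both changes differed between the sexes (-0.90, adjusted p = 1.13e-04, for Acat1 and -0.56, adjusted p = 0.00398, for Gcdh), with female log2 fold changes of 0.01 and -0.05. Without the 5 kidneys of high Alb the difference between the sexes for Gcdh was -0.59 (adjusted p = 0.0518).

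Among 8 transporters of tryptophan, kynurenine and related organic anions, 3 passed higher and 1 lower in males. The shares of all genes tested were 4.14% higher and 4.9% lower. Slc7a8 (0.61, SE 0.13, adjusted p = 0.00399) and its heavy chain Slc3a2 (0.43, SE 0.09, adjusted p = 0.00337), which form a basolateral exchanger of neutral amino acids, and Slc16a10 (0.38, SE 0.08, adjusted p = 0.00328), an aromatic amino acid transporter, were higher. Slc22a6, the organic anion transporter OAT1, was 583 to 1005 CPM in Ctrlm and 414 to 546.8 CPM in cKOm (-0.65, SE 0.11, adjusted p = 4.18e-04). Without the 5 kidneys of high Alb the 3 rises did not pass (adjusted p = 0.263, 0.347 and 0.205), and with the liver covariate Slc7a8 (0.0789) and Slc16a10 (0.09) did not. The call on Slc22a6 passed in both.

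In the serotonin and indole branch 3 of 7 genes were tested, and both monoamine oxidases passed higher in males, as 4.14% of all genes did. Maob was 3.34 to 7.41 CPM in Ctrlm and 8.08 to 13.3 CPM in cKOm, without overlap (log2 fold change 0.84, SE 0.18, adjusted p = 0.00341). Maoa was 11.4 to 14.4 CPM and 13.6 to 19.99 CPM (0.45, SE 0.10, adjusted p = 0.00417), a call lost with the liver covariate (0.0644) and without the 5 kidneys of high Alb (0.393). Of 7 genes of the aryl hydrocarbon receptor pathway, for which kynurenine and kynurenic acid are ligands, 1 passed in males, Cyp1b1, which was lower (-0.52, SE 0.10, adjusted p = 0.00116). Of all genes tested, 9.05% passed in males and 4.9% were lower. The Cyp1b1 call was lost with the liver covariate (0.0593) and without the 5 kidneys of high Alb (0.236).

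Downstream of Qprt, none of the 10 tested genes of NAD synthesis and salvage (12 listed) passed in males by edgeR or DESeq2, while limma-voom called 1, and 3 had an unadjusted p below 0.05. Their median log2 fold change in males was -0.08. The 2 other enzymes with kynurenine aminotransferase activity, Got2 and Il4i1, did not pass by edgeR or limma-voom, with 1 at an unadjusted p below 0.05 and 1 called by DESeq2. In females no gene of any of these lists passed by edgeR, limma-voom or DESeq2, and an unadjusted p below 0.05 was found for 1 gene of the NAD list and 1 of the transport list and for none of the others.

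The genes whose log2 CPM followed each member most closely over the 24 kidneys were taken from 14072 genes with a mean of at least 1 CPM. These correlations are descriptions, since the points share 4 groups of sex and genotype. Kynu went with Shmt1 (Pearson's r 0.96), Acss1 (0.95) and Prom1 (0.94), and Kyat1 with Them7 (0.95) and Acy3 (0.94). Kyat3 went with Xist (0.97), the RNA of the inactive X chromosome, which is made in females, and with Rdh16f2 (0.97) and Slc22a19 (0.95). Aadat went with Epb41l4b (0.96), Gm30551 (0.96) and Cbr1 (0.95). For Haao the closest genes were Nit1 (0.92), Lap3 (0.92) and Acy3 (0.92), for Kmo Susd2 (0.87), Mdk (0.85) and Enpp3 (0.85), for Qprt Eci2 (0.86), Apoa4 (0.84) and Gm17251 (0.84), and for Acmsd Rtn4ip1 (0.84), Pdia6 (0.81) and M6pr (0.78). The members whose control kidneys did not overlap between the sexes (Kynu, Kyat1, Kyat3 and Aadat) had the closest of the partners named here by Pearson's r, all at 0.94 or more. Spearman's rho of the pairs ran from 0.68 (Acmsd with Pdia6) to 0.935 (Kyat3 with Slc22a19). It was well below r for Haao with Nit1 (0.68) and Kyat1 with Acy3 (0.75). For Kmo rho was 0.85 to 0.89, about as high as r.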

How the data were processed

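Whole-kidney poly(A) RNA of 24 mice was sequenced. The authors trimmed reads with cutadapt 1.8, aligned them to GRCm38 with STAR 2.5.3a and deposited raw read counts per gene from HTSeq 0.9.1 (per the labels and the study's methods). Whether counting used strand is not given in the sources used here. Summary rows that name no gene (reads not uniquely aligned, a median of 28.2%, and reads outside genes, 6.0%) were left out. Groups were taken from the sample labels.

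Counts were normalised by TMM and fitted with the quasi-likelihood test of edgeR 4.0.16 in R 4.3.3, in 1 model of 4 groups, over genes that reached 1 CPM in any kidney. Benjamini-Hochberg adjustment covered male and female tests of all genes together, the difference between the sexes alone and the control sexes alone, with a threshold of 0.05. CPM are TMM-scaled, log2 CPM have a prior count of 2, intervals are 95% from the SE, and exact permutation tests were two-sided over 924 arrangements (smallest p 0.00216). Single kidneys are the replicates. The liver covariate was the mean log2 level of hepatocyte markers. Promoters came from RefSeq and positions from GENCODE M21, both GRCm38.

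Alternatives were limma-voom (limma 3.58.1), DESeq2 1.42.0, RLE scaling, other filters, each sex alone, adjustment within sex, a replicate block, a liver covariate, each kidney left out in turn and, chosen after seeing the data, the 5 kidneys of high Alb left out. The genes named are the 10 members, Pex5, Alb, up to 4 genes past the threshold per pathway list (smallest male p) and the 3 closest genes per member that passed. A closest gene of Kyat1 and a promoter sequence are not reported here. Got2, Il4i1, Ido1, some proximal tubule markers and the genes overlapping members are named in addition. Members and lists were chosen with earlier results of these data known. Tested on simulated counts (15701 genes, 200 changed), the fit recovered 160 changed genes with 13 false calls in males and 163 with 7 in females. All changed genes had the same size of change, with no sex difference and no kidneys set apart by liver transcripts. These rates therefore need not hold for smaller changes or for the real kidneys. Replicates of a group differed beyond counting noise in all 60 pairs.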

Additional observations from a re-analysis of the deposited data

Results flagged for a closer look

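Of 52 groups of 6 kidneys examined, 4 held a kidney far from the others by Dixon's 95% criterion, which chance gives in about 1 of 20 groups. All 4 concerned liver transcripts. In cKOm kidneys replicate 4 had 6.26 CPM of Tdo2 against 0 to 0.32 CPM in the other 5, and 234.8 CPM of Alb against 23.2 to 34.5 CPM. In Ctrlf kidneys replicate 2 had 0.486 CPM of Tdo2 against 0 to 0.13 CPM in the others, and 56.1 CPM of Alb against 21.6 to 30.7 CPM.

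Among the members, Pex5 and the pathway genes named in the report, the male change differed from the female change for 5 by the test of the difference itself. Kynu differed by 1.39 on the log2 scale (male 1.33, female -0.05), Kyat1 by -0.83 (male -0.92, female -0.09), Ido2 by -1.50 (male -1.87, female -0.36), Gcdh by -0.56 (male -0.61, female -0.05) and Acat1 by -0.90 (male -0.89, female 0.01). Without the 5 kidneys of high Alb the differences of Kynu (0.93, adjusted p = 0.203), Ido2 (-1.35, adjusted p = 0.128) and Gcdh (-0.59, adjusted p = 0.0518) did not pass.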

How the results depend on the processing

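Kmo, Haao, Kyat1, Kyat3, Acmsd and Ido2 were called lower in males under all 34 alternatives. These include the fits with 1 female kidney left out, which keep every male kidney and so test the male calls little. The 8 members called in males became 5 without the 5 kidneys of high Alb, and 6 to 8 with 1 kidney left out. The 1 member called in females (Kmo) became 0 with adjustment within each sex, with the replicate block and without the 5 kidneys of high Alb, and 0 to 1 with 1 kidney left out. The 2 members whose change differed between the sexes became 5 by DESeq2 and 2 to 3 with 1 kidney left out, and the 8 that differed between control sexes became 6 to 8. The difference between the sexes also passed for more of all genes by DESeq2. There 203 genes were higher and 371 lower of 16047, against 132 and 240 of 16092 in the main fit. Replicate numbers did not pair the samples: over 12 same-numbered cKO and Ctrl pairs the correlation of deviations from group means was -0.20 to 0.12, and in 2 of the 12 a kidney correlated best with its own number. The replicate block left 7 members called in males, 0 in females, 2 in the difference between the sexes and 6 between control sexes. Leaving out the 5 kidneys of high Alb also leaves 2 Ctrlm kidneys, so fewer samples were tested.

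Signs turned in these cases, none of them with an adjusted p below 0.05 after the turn. Tdo2 turned with the liver covariate in males (0.57), in the difference between the sexes (1.46) and between control sexes (-1.07). Afmid turned without the 5 kidneys of high Alb in the difference between the sexes (0.30) and between control sexes (-0.037). With 1 kidney left out, female log2 fold changes ranged from -0.092 to 0.039 for Kynu, -0.124 to 0.042 for Qprt, -0.076 to 0.13 for Acmsd and -1.41 to 0.58 for Tdo2, and the difference between the sexes for Afmid from -0.439 to 0.007. The cause was not tested. Tdo2 and Ido1 are limited by depth, most kidneys holding few counts of either.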
